A study of Mus musculus with 16 samples.

Results

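The 7 long noncoding RNAs followed here are known to be retained in the nucleus, and they were measured in the cortex of rapamycin- and vehicle-treated 5xFAD mice. They were chosen by name: Malat1, Neat1, Meg3, Rian, Mirg, Miat and Snhg11. All 7 of these genes were found among the 47593 genes of the count table, and all 7 passed the filter on low counts that left 16553 genes for testing. Malat1 was put on the list because its level was seen to differ between the batches of the labels, so every difference between batches is given here as a description without a test. The groups were female vehicle (FC), female rapamycin (FR), male vehicle (MC) and male rapamycin (MR), with 4 libraries each, and all mice carried the 5xFAD transgenes. The neuronal Thy-1 promoter drives these transgenes, mutant human APP among them, and the mice used here were heterozygous on a C57BL/6-SJL hybrid background. Rapamycin or the vehicle was given in the chow from 2 to 5 months of age, and cortical RNA was taken at 5 months. No mice without the transgenes were analysed, so the levels below describe amyloid-bearing cortex only. The labels list 4 biological replicates per group while the text of the study speaks of pooled cortices, so it is not settled whether each library stands for 1 mouse.

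Long noncoding RNAs that stay in the nucleus act where they are made, as scaffolds for proteins or as regulators of splicing and chromatin. Malat1 gathers in nuclear speckles, the stores of splicing factors, and the long isoform of its neighbour Neat1 is the core on which paraspeckles are built. Meg3, Rian and Mirg are transcribed from the maternal chromosome of the imprinted Dlk1-Dio3 domain, where Rian carries small nucleolar RNAs and Mirg carries a cluster of microRNAs. Miat, also called Gomafu, forms its own nuclear domain in neurons and binds splicing factors, and Snhg11 is a small nucleolar RNA host gene of neurons. The libraries were made from RNA captured with oligo(dT) beads, which bind poly(A) stretches, and 2 of these RNAs are known to end in ways that such beads do not bind as they bind messenger RNA. Malat1 and the long Neat1 isoform are cut by RNase P and end in a triple helix in place of a poly(A) tail, although poly(A)-tailed forms of both exist.

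The 3′ ends of the longest annotated transcripts (GENCODE M21, GRCm38) are shown because poly(A) tails, which oligo(dT) beads bind, are added downstream of a poly(A) signal, and the tail itself is not part of these sequences. Each line holds the last 30 bases of a transcript, 5′ to 3′ on its own strand, with the poly(A) signal AATAAA or ATTAAA in capitals where it was found.

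Malat1-201, chr19:5795690-5795719, minus strand: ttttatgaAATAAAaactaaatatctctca
Neat1-201, chr19:5824708-5824737, minus strand: gagaacgaacgtgagcaggaaaaagcaaaa
Meg3-209, chr12:109571697-109571726, plus strand: gctttcAATAAAtttcttgttttaactaaa
Rian-201, chr12:109654980-109655009, plus strand: atacttatatgagtgaaaaAATAAAaaaaa
Mirg-204, chr12:109749429-109749458, plus strand: gaatAATAAAcatatgtcatataatgtaaa
Miat-205, chr5:112213228-112213257, minus strand: atttcaatATTAAAaccgacacacactgga
Snhg11-201, chr2:158386116-158386145, plus strand: gaaccacaaAATAAAcactgtcttccttaa

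Of these ends, 6 held a signal and that of the 20771-base Neat1-201 did not, where 62.9% of the longest transcripts of 15988 tested genes held one in the same window. Stretches of A inside a transcript can also be bound by oligo(dT). The longest such run was 16 bases in Meg3, 15 in Rian, 12 in Malat1, 8 in Snhg11, 7 in Neat1, 5 in Mirg and 4 in Miat. Of the tested genes whose longest transcript was within the length range of the members, 18.5% had a run of at least 12. These features are given as a description, and their part in the differences below was not tested.

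Malat1 lies on chromosome 19 from 5795690 to 5802672 (GRCm38) and is a single exon of 6983 bases in its longest transcript. Neat1 lies 22035 bases away on the same minus strand, from 5824708 to 5845478. On chromosome 12, Meg3 runs from 109541001 to 109571726, Rian from 109603940 to 109661716 and Mirg from 109729764 to 109749460, all on the plus strand, and RefSeq places 14 microRNA hairpins inside Mirg. Miat lies on chromosome 5 from 112213228 to 112229395 on the minus strand and Snhg11 on chromosome 2 from 158375638 to 158386145 on the plus strand. GENCODE calls Snhg11 a protein-coding gene although it is known as a noncoding host RNA. Counting did not use strand and left out read pairs that overlapped several genes. The share of a member's exon bases that another gene also covers was 13.8% for Malat1, 11.9% for Miat, 8.29% for Meg3 and between 1.56% and 5.03% for the others, so these genes are counted on part of their length.

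Each library had between 16393501 and 20593089 counted read pairs, and the members together held between 0.154% and 0.270% of them in the 11 libraries of batch 1 and between 0.570% and 1.19% in the 5 libraries of batch 2. Batch 2, as the labels call it, held FC4, FR4, FR5, MC4 and MR4. The library labelled male rapamycin 4 went against its label, since it had 9935 read pairs on Xist, the RNA of the inactive X chromosome, and 0 on the Y-linked genes. It is called the library labelled male rapamycin 4 throughout, and results without it are given only where this is stated. The ribosomal RNA gene Rn18s-rs5, which has no poly(A) tail, had between 606 and 2386 CPM in batch 1 and between 86.0 and 113 CPM in batch 2, and its part in the differences below was not tested. CPM is the number of read pairs of a gene per fixed library total, here after scaling with the TMM factors of edgeR.

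Per kilobase of exon, the 7 RNAs spanned a wide range of levels in batch 1. Snhg11 had the highest median (57.9 CPM per kilobase), followed by Meg3 (39.6), Rian (28.3), Malat1 (24.4), Miat (13.4), Neat1 (2.32) and Mirg (1.51). The ranges over the 11 libraries overlapped between all neighbours in this order except at 2 steps, from Malat1 to Miat and from Miat to Neat1. In batch 2 the order was Meg3 (198 CPM per kilobase), Snhg11 (168), Malat1 (101), Miat (56.5), Rian (30.1), Neat1 (5.90) and Mirg (3.34), so that Rian stood below Malat1 and Miat there. The ranges of Meg3 and Snhg11 overlapped in batch 2, as did those of Malat1 and Miat and, narrowly, of Malat1 and Rian.

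**Figure D1:**
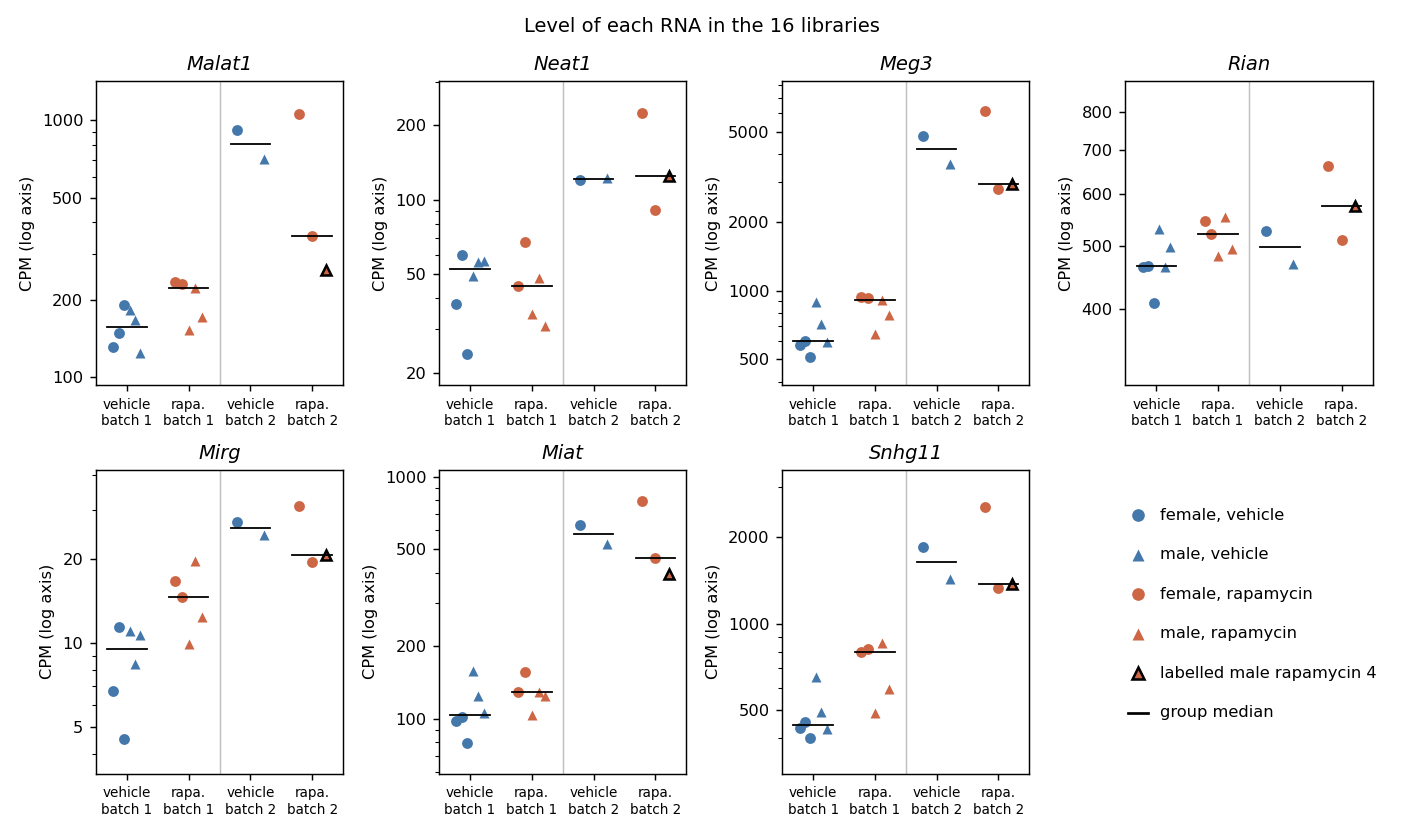
Level of each RNA in each of the 16 libraries, in CPM on a log axis, split by batch and diet, with circles for libraries labelled female, triangles for those labelled male, a black outline for the library labelled male rapamycin 4 and a line at each group median. Except for Rian and Mirg, every library of batch 2 lies above every library of batch 1.

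Malat1 was higher in every library of batch 2 than in any of batch 1. In batch 1 it ranged from 124 to 192 CPM in the 6 vehicle libraries (median 157 CPM) and was 235, 229.8, 152, 222 and 171 CPM in FR1, FR2, MR1, MR2 and MR3. In batch 2 it was 914 CPM in FC4, 707 in MC4, 1053 in FR4, 353 in FR5 and 260.0 in the library labelled male rapamycin 4. In batch 1 the coefficient of variation was 17.4% with vehicle and 18.7% with rapamycin. In batch 2 both vehicle libraries lay below FR4 and above FR5 and the library labelled male rapamycin 4. A comparison of spread between diets cannot be made there, with 2 vehicle and 3 rapamycin libraries. The difference of batch 2 from batch 1 was 1.82 ± 0.24 on the log2 scale (SE, fit of sex, batch and diet), or 3.53-fold. It was 2.37 among vehicle libraries and 1.20 among rapamycin libraries, as differences of mean log2 CPM. Over both diets this difference of means was 1.72, and 2.01 without the library labelled male rapamycin 4.

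Neat1 was also separated by batch, at a lower level. The batch 1 vehicle libraries ranged from 23.8 to 59.7 CPM (median 52.6 CPM), and FR1, FR2, MR1, MR2 and MR3 had 44.6, 67.3, 34.6, 48.2 and 30.8 CPM. In batch 2, FC4 had 120.2 CPM, MC4 123, FR4 224, FR5 90.9 and the library labelled male rapamycin 4 had 125 CPM. The batch difference was 1.54 ± 0.22 (log2, SE), and within the diets it was 1.43 with vehicle and 1.65 with rapamycin. The diet groups overlapped in both batches.

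Meg3 showed the largest batch difference of the members. Its batch 1 vehicle libraries ranged from 515 to 898 CPM (median 602 CPM), and FR1, FR2, MR1, MR2 and MR3 had 935, 932, 647, 908 and 783 CPM. In batch 2 it reached 4797 CPM in FC4, 3587 in MC4, 6167 in FR4, 2792 in FR5 and 2946 in the library labelled male rapamycin 4. The lowest library of batch 2 was thus far above the highest of batch 1. The difference was 2.43 ± 0.17 (log2, SE), or 5.38-fold, which was the 80th highest of the 16553 tested genes.

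Rian, the next member along the same imprinted domain and on the same strand, differed little between batches. It ranged from 408 to 531 CPM in the batch 1 vehicle libraries (median 465 CPM) and was 545, 521, 483, 553 and 495 CPM in FR1, FR2, MR1, MR2 and MR3. In batch 2 it was 527 CPM in FC4, 469 in MC4, 662 in FR4, 511 in FR5 and 575 in the library labelled male rapamycin 4. The batches overlapped, and the difference was 0.13 ± 0.08 (log2, SE). It was also the steadiest of the members, with a coefficient of variation of 8.66% over the 11 libraries of batch 1.

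Mirg, the microRNA host farther along the domain, was the least abundant. The batch 1 vehicle libraries ranged from 4.52 to 11.4 CPM (median 9.54 CPM), and FR1, FR2, MR1, MR2 and MR3 had 16.7, 14.6, 9.90, 19.7 and 12.4 CPM. In batch 2 it was 27.2 CPM in FC4, 24.3 in MC4, 31.0 in FR4, 19.5 in FR5 and 20.7 in the library labelled male rapamycin 4. The batches touched at MR2 and FR5. In batch 1, 4 of the 5 rapamycin libraries lay above every vehicle library. The batch difference was 1.11 ± 0.21 (log2, SE), and it was 1.61 with vehicle and 0.70 with rapamycin.

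Miat and Snhg11 were separated by batch as well. Miat ranged from 79.0 to 157 CPM in the batch 1 vehicle libraries (median 104 CPM), with 129, 156, 103, 129 and 124 CPM in FR1, FR2, MR1, MR2 and MR3. Its batch 2 values were 633 CPM in FC4, 525 in MC4, 790.4 in FR4, 460.1 in FR5 and 394 in the library labelled male rapamycin 4. The difference was 2.22 ± 0.16 (log2, SE), the next largest after Meg3. Snhg11 ranged from 402 to 652 CPM in the batch 1 vehicle libraries (median 446 CPM), with 796, 819, 490.5, 856 and 592 CPM in FR1, FR2, MR1, MR2 and MR3. In batch 2 it was 1852 CPM in FC4, 1429 in MC4, 2546 in FR4, 1329.7 in FR5 and 1373 in the library labelled male rapamycin 4. Its batch difference was 1.499 ± 0.17 (log2, SE).

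Between batches, 5 of the 7 members had no overlap, all of them higher in batch 2, which was so for 4.72% of all tested genes. Since this contrast chose Malat1, nothing is read from the count. It was again 5 without the library labelled male rapamycin 4. The median difference was 1.54 over the members and 0.02 over all tested genes. Within batch 2 the libraries kept an order across members: FR4 was the highest for all 7, and FR5 was among the lowest pair for all 7. FC4 was next to FR4 for 5 members, and the library labelled male rapamycin 4 was among the lowest pair for 5. Xist, a nuclear RNA that is no member, was also high in FR4 (1302 CPM) and FC4 (1024 CPM) against 505 CPM in FR5 and 512 CPM in the library labelled male rapamycin 4. The levels of Xist in the female libraries of batch 1 were between 491 and 739 CPM.

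**Figure D2:**
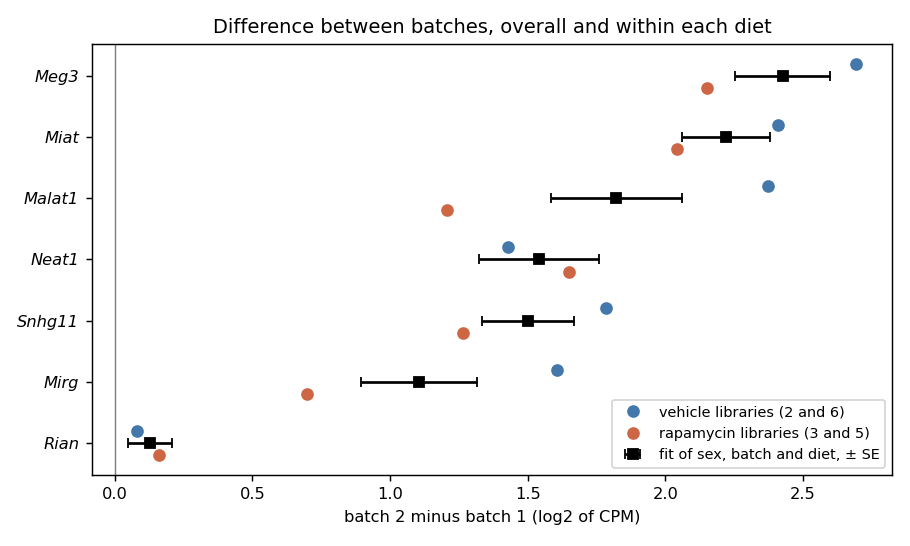
Batch 2 minus batch 1 of each RNA in log2 of CPM, from the fit of sex, batch and diet (squares, bars are the SE) and as differences of mean log2 CPM within the vehicle and within the rapamycin libraries (circles). Meg3 (2.43) and Miat (2.22) lie farthest to the right and Rian (0.13) close to 0, and the vehicle circle lies to the right of the rapamycin circle for 5 of 7 RNAs.

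The neighbouring RNAs of the imprinted domain therefore stood in different proportions in the batches. There were between 1.21 and 1.79 read pairs on Meg3 for each pair on Rian in batch 1 and between 5.12 and 9.32 in batch 2. The ratio of Mirg to Rian was between 0.0111 and 0.0356 in batch 1 and between 0.0360 and 0.0519 in batch 2, without overlap. The lowest batch 2 value of both ratios was that of the library labelled male rapamycin 4. Without it the lowest were those of FR5, at 5.47 for Meg3 to Rian and 0.0383 for Mirg to Rian. In contrast, the ratio of Malat1 to Neat1 overlapped, with 2.198 to 8.05 in batch 1 and 2.08 to 7.60 in batch 2. The upstream of 2 annotated starts of Meg3 and the start of Rian from RefSeq (GRCm38.p6) are shown because the ratio of these neighbours differed between batches. Each line holds 250 bases before and 50 after the start on the plus strand, with matches to TGACGTCA, the cyclic AMP response element, and to TATAAA on either strand in capitals.

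Meg3, chr12:109540746-109541045: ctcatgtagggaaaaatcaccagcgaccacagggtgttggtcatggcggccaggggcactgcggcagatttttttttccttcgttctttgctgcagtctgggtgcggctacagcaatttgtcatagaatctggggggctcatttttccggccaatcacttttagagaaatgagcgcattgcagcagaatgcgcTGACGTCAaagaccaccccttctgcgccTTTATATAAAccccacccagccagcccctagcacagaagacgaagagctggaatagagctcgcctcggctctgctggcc
Rian, chr12:109603695-109603994: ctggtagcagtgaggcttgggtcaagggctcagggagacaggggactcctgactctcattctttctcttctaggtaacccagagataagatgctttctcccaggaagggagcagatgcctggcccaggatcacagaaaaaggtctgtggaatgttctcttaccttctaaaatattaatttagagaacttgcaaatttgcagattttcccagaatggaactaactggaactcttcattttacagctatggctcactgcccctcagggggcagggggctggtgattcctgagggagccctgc

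The Meg3 window shown held 1 TGACGTCA, 2 overlapping matches to TATAAA that read one on each strand, and 13 CG dinucleotides, where 1.79% of 32851 such windows held TGACGTCA and 13.6% held TATAAA. The window of the other Meg3 start, chr12:109545148-109545447, held neither motif and 1 CG dinucleotide. The Rian window held neither and 0 CG dinucleotides against a median of 7, so the difference from Rian in these features depends on which Meg3 start is taken. RefSeq windows were found for 6 members, with none matched for Neat1.

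**Figure D3:**
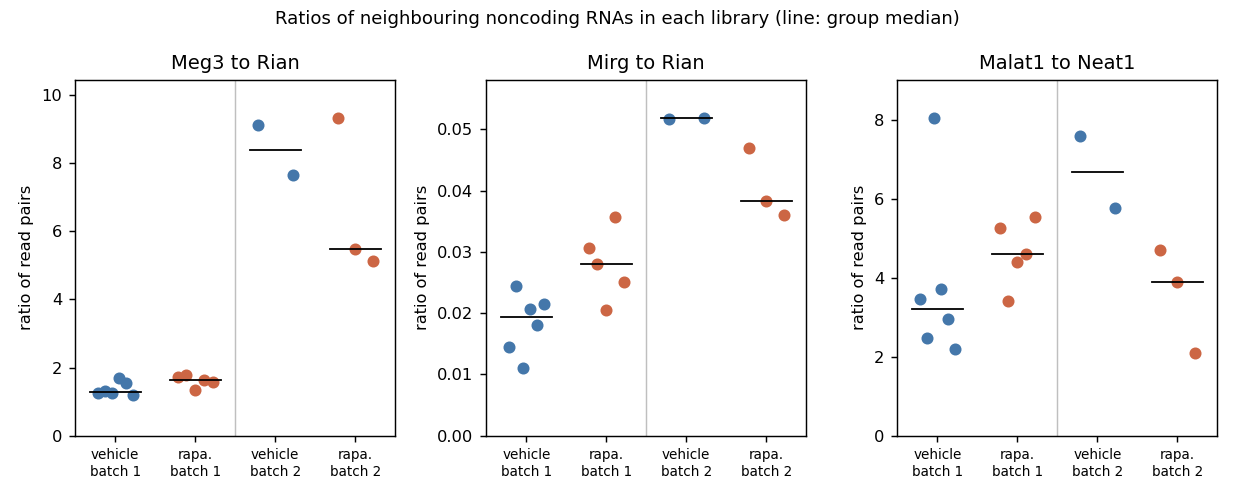
Ratio of read pairs of neighbouring RNAs in each library, split by batch and diet, with a line at each group median. The ratio of Meg3 to Rian is at most 1.79 in batch 1 and at least 5.12 in batch 2, while the ratios of Malat1 to Neat1 overlap between the batches.

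To ask whether rapamycin changed these RNAs once batch and sex were taken into account, the diet term was tested in all 16 libraries with edgeR's quasi-likelihood test and Benjamini-Hochberg adjustment over all genes. At an adjusted p under 0.05, 0 of the 7 members were called, where 13.3% of all tested genes were. Unadjusted p values were under 0.05 for 3 members, beside 30.4% of all genes, and DESeq2 called 1, beside 21.9% of its genes. The differences, rapamycin minus vehicle, were all above 0. Snhg11 was 0.42 ± 0.16 higher (log2, SE, 8 against 8 libraries, 1.34-fold, edgeR adjusted p = 0.0859), Mirg was 0.46 ± 0.20 higher (adjusted p = 0.130) and Rian 0.17 ± 0.07 higher (adjusted p = 0.137). The values of Meg3 (0.22 ± 0.16, adjusted p = 0.382), Miat (0.12 ± 0.15, adjusted p = 0.644), Malat1 (0.06 ± 0.23, adjusted p = 0.887) and Neat1 (0.03 ± 0.21, adjusted p = 0.939) were not separated from 0 either. The median over the members was 0.17, beside 0.02 over all genes. Without the library labelled male rapamycin 4, 0 members were called as well.

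Snhg11 came closest to the threshold, and its call depended on the test and the samples. In batch 1 alone its difference was 0.57 ± 0.16 (edgeR adjusted p = 0.0484, where 7.45% of genes were called), with the 3 libraries FR1, FR2 and MR2 above every vehicle library and MR1 and MR3 within their range. DESeq2 on all libraries gave 0.42 with an adjusted p of 0.0473, and edgeR without a filter on low counts called Snhg11 (adjusted p = 0.00403) and Mirg (adjusted p = 0.0145), where 8.68% of genes were called. In batch 2 alone the Snhg11 difference was 0.02 ± 0.27, from 2 vehicle and 3 rapamycin libraries. Library measures also differed between the diets, in both batches. Mitochondrial genes held between 3.75% and 6.99% of the read pairs in the batch 1 rapamycin libraries (median 6.88%) and between 3.27% and 5.47% in the vehicle libraries (median 3.87%). In batch 2 the mitochondrial share was between 4.17% and 4.67% with rapamycin and between 2.64% and 3.43% with vehicle. With that share as a covariate the Snhg11 difference was 0.16 (adjusted p = 0.861). With the slope of expression on exon length of each library as a covariate it was 0.25 (adjusted p = 0.954). With either covariate 0 of all 16553 genes were called by edgeR, while 1318 genes with the first and 965 with the second had an unadjusted p under 0.05.

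Diet differences were not alike in the batches for all members. Malat1 was 0.37 ± 0.14 higher with rapamycin in batch 1 (log2, SE) and 0.84 ± 0.43 lower in batch 2, where FR5 and the library labelled male rapamycin 4 lay below both vehicle libraries and FR4 above them. Meg3, Mirg and Miat also had values above 0 in batch 1 and below 0 in batch 2, and Neat1 the other way round. The batch 2 values rested in part on the library labelled male rapamycin 4. As differences of mean log2 CPM, Malat1 was at -0.81 in batch 2 with that library and -0.40 without it, Miat at -0.14 and 0.065, Meg3 at -0.16 and 0.00035, and Mirg at -0.15 and -0.063. Snhg11 moved from 0.037 to 0.18 and Neat1 from 0.17 to 0.23. Without that library Meg3 and Miat were thus no longer below 0 in batch 2, from 2 libraries per diet. The interaction of batch and diet was -1.03 ± 0.44 for Malat1 (unadjusted p = 0.0325, edgeR adjusted p = 0.914) and -0.85 ± 0.40 for Mirg (unadjusted p = 0.0457, adjusted p = 0.914), and 0 of the 7 members passed, where 0.0242% of all genes did. Unadjusted p values were under 0.05 for 2 members, beside 5.17% of all genes, and DESeq2 called 0. The Malat1 interaction was called without FR4, the library with the highest level, at -1.77 (adjusted p = 0.0192). The share of all genes called in that fit is not given, so nothing is read from this call. Leaving out FR4 keeps only FR5 and the library labelled male rapamycin 4, both below the vehicle libraries, as rapamycin libraries of batch 2. The Malat1 interaction was -0.66 (adjusted p = 1) without the library labelled male rapamycin 4. Without a filter on low counts edgeR called 1 member for this interaction, Malat1 (adjusted p = 0.000201), where 0.479% of all genes were.

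**Figure D4:**
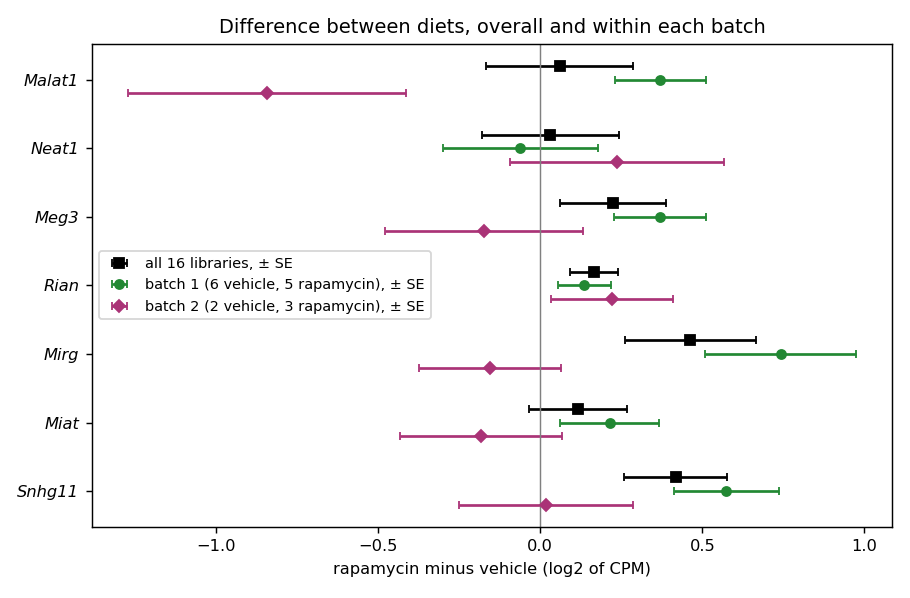
Rapamycin minus vehicle of each RNA in log2 of CPM, with bars for the SE, in all 16 libraries (squares), in batch 1 alone (circles) and in batch 2 alone (diamonds). All squares lie above 0, Snhg11 (0.42) and Mirg (0.46) farthest, and the diamond of Malat1 lies at -0.84.

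Within each sex, rapamycin-treated females had values above 0 for all 7 members and males for 4. With the 4 groups and batch as terms, Snhg11 was 0.62 ± 0.22 higher in FR than in FC (log2, SE, edgeR adjusted p = 0.114), Mirg 0.62 ± 0.29 (adjusted p = 0.212), Miat 0.42 ± 0.20 (adjusted p = 0.208) and Rian 0.23 ± 0.11 (adjusted p = 0.196). Thus 0 of the 7 members were called in females, where 0.0121% of all genes were, 4 had an unadjusted p under 0.05 (23.1% of all genes) and DESeq2 called 0. In batch 1, both FR libraries lay above all 3 FC libraries for 6 of the 7 members, all but Neat1, which was so for 23.1% of all genes. Library measures separated the same libraries: the mitochondrial share was 6.88% in FR1 and 6.98% in FR2 against 3.85% to 5.47% in the FC libraries, and the exon length slope was -0.121 and -0.127 against 0.00040 to 0.077. Their part in these differences was not tested within females. Without a filter on low counts edgeR called 5 members in females, where 5.55% of all genes were called. In males the differences ran from -0.37 (Neat1) to 0.31 (Mirg) and 0 members were called, as was no other gene, with 0 members at an unadjusted p under 0.05 (12% of all genes) and 0 in DESeq2. In batch 1 Neat1 had between 30.8 and 48.2 CPM in the 3 MR libraries and between 49.1 and 56.4 CPM in the 3 MC libraries. FR1 and FR2 lay among the FC libraries or above them. For the other members the diets overlapped in these males. The share of all genes without overlap there was not examined, so nothing is read from the Neat1 values. The interaction of sex and diet was -0.82 ± 0.38 for Neat1 (unadjusted p = 0.0447) and -0.60 ± 0.28 for Miat (unadjusted p = 0.0428), with an edgeR adjusted p of 0.999 for both, and 0 members passed by edgeR or DESeq2, with 2 at an unadjusted p under 0.05 (2.17% of all genes) and 1, Neat1, called by edgeR without a filter on low counts (adjusted p = 0.0135, 0.288% of all genes). These sex contrasts rest on the labelled sex, and 0 members were called in them without the library labelled male rapamycin 4.

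The sexes themselves did not differ detectably in these RNAs. The male minus female difference ran from -0.30 ± 0.23 for Malat1 (log2, SE, edgeR adjusted p = 0.887) to 0.06 ± 0.21 for Mirg (adjusted p = 0.980), and 0 of the 7 members were called, where 0.0302% of all genes were. None of the members had an unadjusted p under 0.05 (0 of 7, beside 5.99% of all genes), and DESeq2 called 0. This contrast also rests on the labelled sex, and 0 members were called in it without the library labelled male rapamycin 4.

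Most of the members varied together among the 11 libraries of batch 1. Of the 21 pairs of members, 12 passed at an adjusted p under 0.05 for both Pearson's r and Spearman's rho (two-sided permutation tests with 100000 resamples, Benjamini-Hochberg over 21 pairs), and no r was below 0. The share of other gene pairs that would pass was not examined, so this count does not set the members apart from other genes. The closest pair was Meg3 and Snhg11, with r = 0.96 and rho = 0.95 (permutation p = 1e-05, the smallest that these permutations can give, and 3e-05). Without the 2 libraries farthest from the Meg3 median, r was 0.95, and with the diet means removed it was 0.94. Meg3 and Miat had r = 0.92 and rho = 0.90 (permutation p = 3e-05 and 0.00032), and r was 0.94 without the 2 farthest libraries. Within the imprinted domain, Rian and Mirg had r = 0.92 and rho = 0.86 (permutation p = 6e-05 and 0.00122), and Meg3 and Rian r = 0.88 and rho = 0.80 (permutation p = 0.00021 and 0.00464), which were 0.78 and 0.82 as r without the 2 farthest libraries. The near neighbours Malat1 and Neat1 did not vary together detectably (r = 0.04, rho = -0.08, permutation p = 0.909 and 0.816). The 6 pairs with Neat1 and 3 of the pairs with Malat1 made up the 9 that did not pass. With the diet means removed, r of Neat1 was 0.80 with Mirg, 0.68 with Miat and 0.67 with Rian. It was 0.59 with Meg3, 0.58 with Snhg11 and 0.09 with Malat1. For the 3 pairs of Malat1, r was then 0.16 with Rian, 0.12 with Mirg and 0.36 with Miat. The values with diet means removed were not tested. Libraries share their depth, diet and preparation across genes, and relations of the members with library measures were examined as 21 further relations. The exon length slope had r = -0.89 with Snhg11 and r = -0.84 with Mirg, and the mitochondrial share had r = 0.84 with Malat1. These had rho of -0.77, -0.78 and 0.75 and permutation p values of 0.000830, 0.00128 and 0.00187 for r, and after adjustment over the 21 relations 6 passed for r and 0 for rho. The 6 were the slope with Snhg11, Mirg, Meg3 (r = -0.78) and Rian (r = -0.78), and the mitochondrial share with Malat1 and Snhg11 (r = 0.74). Rn18s-rs5 had r between 0.00 and 0.36 with the members within batch 1. Batch 2, with 5 libraries, was not examined in this way.

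**Figure D5:**
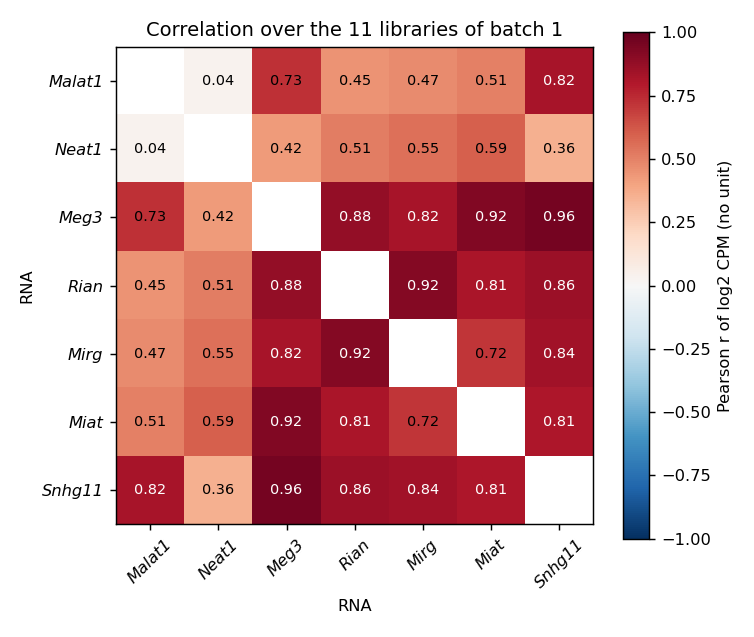
Pearson's r of log2 CPM between each pair of RNAs over the 11 libraries of batch 1, as colour and number without a unit. The block of Meg3, Rian, Mirg, Miat and Snhg11 has r from 0.72 to 0.96, and Neat1 with Malat1 has 0.04.

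The genes most like each member over the 11 libraries of batch 1 are given as a description, by Pearson's r of log2 CPM. Snhg11 went with Arglu1 (r = 0.98), Clk4 (0.98) and Rbm5 (0.97), Meg3 with Ubp1 (0.97), Snhg11 (0.96) and Zfp692 (0.95), and Miat with Cntrob (0.96), Clec2l (0.94) and Podxl2 (0.93). Rsrp1 was among the 3 nearest genes of both Rian (r = 0.96) and Mirg (r = 0.96). Rian also went with Coq10a (0.96) and Hook2 (0.96), and Mirg with Slc37a4 (0.97) and Rmnd5b (0.96). Malat1 was nearest to RP23-154P9.3 (r = 0.93), Ccnt2 (0.92) and Phf20l1 (0.92), and Neat1 to Fa2h (0.94), Arhgef10 (0.93) and Clybl (0.93). Among the genes so named that are no members, the batch difference was between -0.44 (RP23-154P9.3) and 1.19 (Zfp692) on the log2 scale.

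Related genes were examined as 8 lists, with the share of all genes that rose with rapamycin (6.46%) and fell (6.86%) as background. The lists held proteins that work with these RNAs, genes in and beside the Dlk1-Dio3 domain, other noncoding RNAs and histone genes. Of the 16 nuclear speckle proteins tested, 3 rose and 0 fell with rapamycin: Srsf2 (0.34 ± 0.08, log2, SE, edgeR adjusted p = 0.0150), Srsf3 (0.26 ± 0.08, adjusted p = 0.0352) and Srsf7 (0.23 ± 0.06, adjusted p = 0.0245), which all encode SR splicing factors. Of the 16 paraspeckle proteins, Hnrnph3 rose (0.31 ± 0.10, adjusted p = 0.0390) and 0 fell. Of the 11 genes for cutting and binding the Malat1 3′ end, 4 rose and 0 fell. They were Rpp21 (0.47 ± 0.11, adjusted p = 0.0160), Rpp25 (0.34 ± 0.11, adjusted p = 0.0451), Pop4 (0.33 ± 0.09, adjusted p = 0.0268) and Pop5 (0.53 ± 0.14, adjusted p = 0.0231), all subunits of RNase P. The medians of these lists were 0.10, 0.03 and 0.22. None of the splicing factors bound by Miat (0 of 3), of the other genes in and beside the Dlk1-Dio3 domain (0 of 6 tested), of the noncoding RNAs without a poly(A) tail (0 of 2) or of the replication-dependent histone genes (0 of 9) passed the edgeR test. At an unadjusted p under 0.05 there were 0, 1, 0 and 1 in these lists, and DESeq2 called 0 in each.

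Among 32 tested other long noncoding RNAs, 6 rose and 0 fell, with a list median of 0.32. Gas5, a small nucleolar RNA host, had 45.6 ± 4.46 CPM with vehicle and 60.5 ± 9.65 CPM with rapamycin (SD, n = 8 each, log2 difference 0.43 ± 0.09, edgeR adjusted p = 0.0119). The others were Epb41l4aos (0.74 ± 0.13, adjusted p = 0.0104), Snhg4 (0.50 ± 0.15, adjusted p = 0.0341), Snhg20 (0.69 ± 0.21, adjusted p = 0.0391), and the X-linked Firre (0.43 ± 0.13, adjusted p = 0.0362) and Ftx (0.62 ± 0.19, adjusted p = 0.0431). Of all 14 related genes that rose, only Srsf2, Rpp21, Epb41l4aos and Gas5 kept the call in all 16 fits that leave out 1 library. With the mitochondrial share as a covariate 0 of the 14 were called (smallest adjusted p = 0.575), and with the exon length slope 0 of the 14 (smallest adjusted p = 0.769). The differences themselves ran from 0.10 to 0.57 with the share and from -0.078 to 0.38 with the slope, and 13 of the 14 were smaller than without the covariate in each case. Both measures go in part with diet, so their part cannot be told from that of diet here either. Srsf2 went from 0.34 to 0.16 with either covariate, while Hnrnph3 went from 0.31 to 0.36 with the share and 0.38 with the slope, with larger SEs (0.14 each).

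Between batches, the summed level of the nuclear speckle list did not overlap, with 1988 to 2221 CPM in batch 1 and 2466 to 3418 CPM in batch 2. The sum of the Miat-binding splicing factors was also without overlap (455 to 544 CPM in batch 1, 569 to 741 CPM in batch 2). So was that of the noncoding RNAs without a poly(A) tail, which was lower in batch 2 (607 to 2388 CPM against 86.3 to 113 CPM). The sums of the other related lists overlapped. Srrm2, a scaffold of nuclear speckles, had 194 to 293 CPM in batch 1 and 507 to 989 CPM in batch 2, and Srrm1, Pnn and Acin1 were also without overlap and higher in batch 2. These were 4 of the 16 nuclear speckle genes, and Srsf3, Srsf7, Rnps1, Thrap3 and Bclaf1 had batch differences below 0. Of the 32 other long noncoding RNAs, 4 were without overlap and higher in batch 2 (Snhg14, Firre, Snhg17 and Mir124a-1hg), beside the 4.72% of all tested genes. Over all 95 related genes, 9 were without overlap and higher in batch 2, among them the Miat-binding splicing factor gene Celf3, and 4 were lower (Nono, Hnrnpk, Rpp14 and Rn18s-rs5), beside 2.48% of all tested genes. These batch values were chosen after they were seen and were not tested.

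Markers of cell types were measured because a change in cells would carry such RNAs with it, and in bulk tissue fewer cells of a type and less RNA per cell cannot be told apart. All 9 marker lists were detected, with 0 of their genes at 0 in all libraries, and for 0 of the 9 did the summed level separate the batches. The 10 glutamatergic markers summed to between 4611 and 5630 CPM in batch 1 and between 4232 and 6353 CPM in batch 2, and the 10 GABAergic markers to between 879.6 and 1189 CPM and between 804 and 909.6 CPM. The 10 choroid plexus markers ranged from 15.4 to 2018 CPM over all libraries. Between diets, 3 of the 10 astrocyte markers rose (Gjb6, Aldoc and S100b) by edgeR at an adjusted p under 0.05, with a list median of 0.26. Gfap, Aqp4, Slc1a2 and Sox9 had differences below 0 and were not called. By the same test the glutamatergic marker Bcl11b and 4 of the 10 choroid plexus markers fell. Of the 10 endothelial markers, 1 rose (Ly6c1) and 1 fell (Kdr). Of all genes, 6.46% rose and 6.86% fell. In the 16 fits that leave out 1 library, the astrocyte calls held in all 16, Ly6c1 in 12, Kdr in 6 and Bcl11b in 4. All 4 choroid plexus calls were lost without MC4, the library with 2018 CPM of these markers (adjusted p between 0.0783 and 0.541). The part of these markers in the values of the members was not tested.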

How the data were processed

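The deposited values of the 16 cortex libraries are whole read pair counts per gene symbol that the authors had not normalized, given again in 1 table per group (0 differing cells). Per the labels and the study's methods, poly(A) RNA was read as 150 bp pairs, the first 10 bases were removed, and the reads were aligned to GRCm38 (mm10) with HISAT2 2.2.1 and counted with featureCounts 2.0.3. FastQC 0.11.9 and Trimmomatic 0.39 are named in the submitters' processing notes. Strand was not used.

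Members were taken by gene symbol. Members and lists were chosen with earlier results of these data known. Batch and sex are those of the labels. Counts were scaled with TMM factors in edgeR 4.0.16 (R 4.3.3), and filterByExpr with a minimum count of 10 kept 16553 of 47593 genes, of which 17345 had no count. Quasi-likelihood fits used sex, batch and diet, the 4 groups with batch, or the first set with a batch by diet interaction, with Benjamini-Hochberg adjustment over all tested genes and a call at an adjusted p under 0.05. A prior count of 2 was added for log2 CPM. The biological coefficient of variation was 0.186. For the exon length slope, each gene's deviation from its mean log2 CPM was regressed on log2 exon length within a library. Alternatives were DESeq2 1.42.0, other scalings, filters, terms and samples. The tests were checked on simulated counts with known changes. Libraries are taken as separate mice, and p values measure the spread between them.

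Named genes are the members, genes of the 8 related lists that passed for diet, the 3 genes most like each member over the 11 libraries of batch 1 with a mean of at least 1 CPM, Xist, the Y-linked genes and Rn18s-rs5. Related genes named for their batch difference were chosen after their values were seen. Sequences come from GENCODE M21 transcripts and RefSeq. Correlations used SciPy 1.17.1 and NumPy 2.4.6 in Python 3.11.15, and figures matplotlib 3.10.9. The test result of a further cell type marker is not reported here.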

Additional observations from a re-analysis of the deposited data

Results flagged for a closer look

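In 12 of the 28 combinations of a member and a group of 4 libraries, the highest library stood apart from the other 3 by Dixon's criterion, and all 12 of these libraries were of batch 2. By chance the criterion flags either end in about 1 of 20 groups, and groups of the same libraries are not independent. FC, MC and MR each hold 1 library of batch 2, so most of these flags repeat the batch difference. Nothing is read from their count. FC4 was far above the other female vehicle libraries for Malat1 (914 CPM against at most 192), Meg3 (4797 against at most 605), Miat (633 against at most 102) and Snhg11 (1852 against at most 457). FR4 stood apart for Malat1 (1053 CPM against at most 353 in the other female rapamycin libraries, which include FR5 of batch 2). MC4 stood apart for Malat1 (707 CPM against at most 182), Neat1 (123 against at most 56.4), Meg3 (3587 against at most 898), Mirg (24.3 against at most 10.999) and Miat (525 against at most 157). The library labelled male rapamycin 4 stood apart for Meg3 (2946 CPM against at most 908) and Miat (394 against at most 129). Rian was flagged in 0 groups.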

How the results depend on the processing

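The count of members called for diet was 0 in the main test and in all 16 fits that leave out 1 library (from 0 to 0), and became 2 without a filter on low counts, 1 with DESeq2 and 1 in batch 1 alone. Without the filter it became 5 in females (5.55% of all genes), 1 for the interaction of sex and diet (0.288%) and 1 for that of batch and diet (0.479%). Over the fits that leave out 1 library, the count for the interaction of batch and diet ran from 0 to 1, with Malat1 called without FR4. The share of all genes called in that fit is not given, so nothing is read from it. Requiring 1.5-fold left 0. The diet difference of Malat1 changed sign without a batch term (-0.057), with the mitochondrial share (-0.16) and in batch 2 alone (-0.84), and ran from -0.081 to 0.20 without single libraries. That of Neat1 changed sign with the exon length slope (-0.19) and in batch 1 alone (-0.062), and ran from -0.088 to 0.12. In batch 2 alone Meg3 (-0.17), Mirg (-0.15) and Miat (-0.18) changed sign, as did Ftx (-0.054). With the library labelled male rapamycin 4 also left out, a choice made after seeing the data, the difference of means there was below 0 for Malat1 (-0.40) and Mirg (-0.063) but not for Meg3 (0.00035) or Miat (0.065). Signs also changed with the slope for Rpp25 (-0.078) and Pop5 (-0.033). The cause was not tested. Batch differences moved by less than the replicate spread in every alternative run. The number in the labels is shared by libraries of different groups, and 18 of 21 such pairs had an r of deviations from group means over 0.1 (range -0.16 to 0.67), while 3 had not. Numbers also follow batch: with batch removed too, 7 of 21 were over 0.1 (range -0.43 to 0.37), and 4 of 15 libraries went best with their own number (12 before). Not every pair passed and the labels name no shared origin, so the numbers were not taken as pairs. With the replicate block in place of batch, 0 members were called for diet and 0 for sex, and 1298 of all genes for diet against 2205. Of the 14 related genes, 9 were called, and Srsf3, Srsf7, Hnrnph3, Rpp25 and Pop4 were not (adjusted p from 0.0531 to 0.0858). DESeq2 called 6 of the 16 nuclear speckle genes, where edgeR called 3, and 12 of the 32 other long noncoding RNAs, where edgeR called 6. Beside these counts, DESeq2 called 21.9% of its genes for diet and edgeR 13.3%. The depth limits Mirg most, with 83 to 561 read pairs per library.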
